A study of Mus musculus with 6 samples.

Results

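The Hox genes are described here in cells of the mouse Achilles tendon. Members were all genes whose symbol is Hox, a cluster letter from a to d and a number, with no suffix. This gave 39 of the 33696 genes listed in the files, of which 11 lie in HoxA, 10 in HoxB, 9 in HoxC and 9 in HoxD. Antisense and other noncoding transcripts of the clusters are not members and are described at the end.

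Cells came from mice that carried Gli1-CreERT2 and the Ai9 reporter and had been induced with tamoxifen, so that cells of the *Gli1* lineage carried tdTomato. Tendons were uninjured or taken at 7 or 21 days post injury (dpi) after tenotomy, with 8 of the 24 mice at each time point, and FACS separated tdTomato-labelled (*Gli1*+) from unlabelled (*Gli1*-) cells. All 6 groups thus share the same alleles and the tamoxifen, and labelling depends on activity of the *Gli1* promoter at induction. Each group was measured in 1 library that pooled mice, and no age is given in the sources used here. With 1 library per condition, no test between sorts at a time point or between time points was made, and every interval at 95% covers counting error only.

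Hox genes encode homeodomain transcription factors that give the body axis and the limb their positional identity. In mammals they lie in 4 clusters, and genes at the same place in different clusters are paralogs with the same number. Along the limb, paralogs with the highest numbers act in the distal segments, those just below them in the middle and proximal segments, and adult limb fibroblasts are known to retain region-specific Hox expression. HoxB genes are expressed along the trunk and have little known part in hindlimb patterning, which rests on HoxA, HoxC and HoxD.

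The members are separate genes with closely similar homeoboxes, the DNA that codes for the homeodomain. The windows below show 48 bases of the homeobox, 5′ to 3′, for some of the members on which the results turn. Capitals mark 18 bases that code for an invariant stretch of the recognition helix, which contacts DNA. The sequences were read from the GENCODE M21 transcripts.
Hoxb7: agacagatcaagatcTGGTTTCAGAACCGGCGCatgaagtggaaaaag
Hoxa10: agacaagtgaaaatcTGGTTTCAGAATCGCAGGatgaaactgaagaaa
Hoxc10: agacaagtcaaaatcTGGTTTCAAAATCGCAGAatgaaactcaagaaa
Hoxa11: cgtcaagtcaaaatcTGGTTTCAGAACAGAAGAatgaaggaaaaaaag
Hoxc11: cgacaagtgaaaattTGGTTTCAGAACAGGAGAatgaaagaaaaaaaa
Hoxd11: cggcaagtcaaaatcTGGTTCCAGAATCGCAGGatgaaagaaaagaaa
Hoxa13: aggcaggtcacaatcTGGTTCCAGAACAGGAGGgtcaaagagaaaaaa
Hoxc13: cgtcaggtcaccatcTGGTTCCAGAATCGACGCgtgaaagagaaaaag

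All 39 members had such a window, and the 39 windows were all distinct. Paralogs of 1 group shared a median of 41.5 of the 48 bases (range 35 to 47, 42 pairs), against 36 for different paralogs of the same cluster (range 29 to 46, 172 pairs). *Hoxa10* and *Hoxc10* shared 44 bases, *Hoxa11* and *Hoxc11* shared 42, and *Hoxa10* and *Hoxa11* shared 35. Counts of a 3′ kit come from the ends of transcripts, so these windows show how alike the products are and not where the reads fell.

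A promoter window of 250 bases before the transcript start was found for 22 of the 39 members, as 24 entries of RefSeq on GRCm38.p6. Their median GC content was 58.6%, against 52.4% over all 32851 entries, and their median number of CpG sites was 12.5, against 6. The letters TTTAT, read on either strand and part of motifs bound by caudal-type and posterior Hox factors, were in 37.5% of the 24 entries and in 37.3% of all entries. The 3 promoters below belong to members with contrasting patterns among cell types, with TTTAT and its reverse complement ATAAA in capitals, of which the *Hoxb8* window held 6, the *Hoxa7* window 2 and the *Hoxa11* window 0. They lie at chr11:96281655-96281904 (plus strand), chr6:52218574-52218823 (minus strand) and chr6:52245811-52246060 (minus strand). These are chosen examples, and numbers of TTTAT were not compared with the patterns over the 24 entries. The *Hoxb4* window held 0, though *Hoxb4* and *Hoxb8* have similar patterns below.
Hoxb8: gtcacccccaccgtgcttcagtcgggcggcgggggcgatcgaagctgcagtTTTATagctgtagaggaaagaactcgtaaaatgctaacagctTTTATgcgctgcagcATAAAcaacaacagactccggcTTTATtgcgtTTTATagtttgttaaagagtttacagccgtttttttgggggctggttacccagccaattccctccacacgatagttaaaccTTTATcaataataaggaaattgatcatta
Hoxa7: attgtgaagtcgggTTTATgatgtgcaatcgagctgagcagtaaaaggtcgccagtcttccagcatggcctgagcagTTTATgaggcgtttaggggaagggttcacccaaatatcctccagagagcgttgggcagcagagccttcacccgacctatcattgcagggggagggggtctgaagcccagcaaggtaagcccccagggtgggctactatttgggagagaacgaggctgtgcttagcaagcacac
Hoxa11: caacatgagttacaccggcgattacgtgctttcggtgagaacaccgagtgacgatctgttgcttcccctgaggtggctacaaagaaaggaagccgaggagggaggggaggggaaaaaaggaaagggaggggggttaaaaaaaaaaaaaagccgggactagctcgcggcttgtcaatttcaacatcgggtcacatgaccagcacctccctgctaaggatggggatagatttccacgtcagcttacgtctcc

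The libraries held 8236 to 16437 barcodes and 7057 to 10882 kept cells, at median depths of 4297 to 9775 UMIs per cell, and pairs of libraries shared 27 to 75 barcodes. The labels give equal sexes, but the libraries went against this. Cells with UMIs of Y-linked genes and none of *Xist* made up 70.9% and 70.5% of the *Gli1*+ and *Gli1*- libraries at 7 dpi and 59.6% of the uninjured *Gli1*- library, where cells with *Xist* alone made up at most 0.0108%. In the 21 dpi libraries *Xist* alone was found in 92.7% and 90.5% of cells, and in the uninjured *Gli1*+ library cells with Y-linked UMIs made up 15% and those with *Xist* 68.7%. Sex and condition cannot be told apart for uninjured *Gli1*- against 21 dpi. Values of the other injury comparisons within 1 sex are given beside them.

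Cells were assigned by marker UMIs, giving *Pdgfra* cells (1212 to 4205 per library; fibroblasts and their progenitors express this receptor), *Scx* cells (77 to 1207; *Scx* is a tendon transcription factor), *Rgs5* cells (102 to 981; a pericyte and mural cell gene), *Cdh5* cells (63 to 1539; the endothelial cadherin), *Krt14* cells (95, 2012 and 631 in the *Gli1*+ libraries; a basal keratinocyte keratin), *Col2a1* cells (254 and 301 at 21 dpi; the cartilage collagen) and *Ptprc* cells (3740 of uninjured *Gli1*+; CD45 of blood cells). Types with under 50 cells in a library were left out there. The *Cdh5* list (*Cdh5*, *Pecam1*, *Kdr*, *Emcn*, *Egfl7* and *Tie1*) summed to 2792 to 4434 CPM (UMIs per 1000000) in *Cdh5* cells. In *Pdgfra* cells it summed to 9.67 to 97.3 CPM. Part of this gap was set by the assignment. The list holds *Cdh5* itself, at 680 to 1175 CPM in *Cdh5* cells, and cells that met both gates were left out. The *Pdgfra* list did not tell *Pdgfra* from *Scx* cells, as it was higher in *Scx* cells in 3 of 6 libraries (29722 against 22765 CPM in uninjured *Gli1*+, 44219 against 40320 CPM in *Gli1*+ at 21 dpi and 42135 against 37647 CPM in *Gli1*- at 21 dpi). The *Ptprc* cells made up 53.0% of the uninjured *Gli1*+ library although the tissue label is tendon, and *Krt14* cells are not a tendon cell type. Since 1 UMI is 1 transcript end in a 3′ kit, CPM were not divided by gene length. A lower level in a type here is fewer of its UMIs among all UMIs of its cells, and fewer positive cells and fewer transcripts per cell were not told apart by CPM alone.

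In *Pdgfra* cells, *Hoxa10* and *Hoxc10* had the highest mean levels of the Hox genes, followed by *Hoxc11*, *Hoxa9* and *Hoxa11*. Summed over the 39 members, their uninjured level was 254 CPM (interval 245 to 263) where sorted as *Gli1*+ and 162 CPM (157 to 167) where sorted as *Gli1*-. It was 191 CPM (185 to 197) and 185 CPM (182 to 189) at 7 dpi, and 210 CPM (205 to 215) and 213 CPM (208 to 218) at 21 dpi. The uninjured sorts lay furthest apart, and at 7 and 21 dpi the intervals of the sorts overlapped.

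*Hoxa10*, a regulator of the proximal limb, had the highest mean, with 37.7, 41.7 and 39.7 CPM (*Gli1*+) against 37.1, 46.0 and 42.4 CPM (*Gli1*-) in *Pdgfra* cells (uninjured, 7 and 21 dpi, the order used throughout). Its paralog *Hoxc10* had 29.7, 25.5 and 27.1 CPM (*Gli1*+) against 23.1, 28.4 and 28.1 CPM (*Gli1*-). The 6 libraries of each of these genes lay close together. Of the 11 paralogs, which pattern the middle limb segment, *Hoxc11* had 32.6, 19.8 and 20.1 CPM and 18.5, 19.4 and 18.8 CPM, so that the uninjured *Gli1*+ library stood above 5 libraries at near the same level. *Hoxa11* had 22.2, 19.2 and 15.8 CPM (*Gli1*+) against 13, 18.4 and 15.8 CPM (*Gli1*-). *Hoxd11* was lower, with 4.01, 3.40 and 2.30 CPM and 1.87, 2.26 and 3.90 CPM. In *Gli1*+ cells the uninjured library was its highest, and in *Gli1*- cells the uninjured library was its lowest.

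*Hoxa9* had 22.2, 18.3 and 24.1 CPM (*Gli1*+) against 8.04, 14.8 and 21.0 CPM (*Gli1*-) in *Pdgfra* cells, where the uninjured *Gli1*- library was the lowest of 6. *Hoxc9* had 18.2, 7.77 and 10.7 CPM and 12.7, 7.69 and 9.96 CPM. *Hoxd9* had 7.44, 5.97 and 7.30 CPM and 3.66, 4.48 and 9.55 CPM. *Hoxc9* was thus highest in both uninjured libraries, which the other 9 paralogs were not. Among the middle members of the clusters, which act along the trunk, *Hoxd8* had 8.95, 10.9 and 10.1 CPM (*Gli1*+) against 6.09, 9.62 and 11.6 CPM (*Gli1*-). *Hoxa7* had 9.79, 6.07 and 10.9 CPM and 3.18, 5.01 and 9.83 CPM.

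The HoxC genes 4 to 6 were at one low level. *Hoxc4* had 9.12, 6.07 and 6.75 CPM (*Gli1*+) against 8.20, 6.21 and 6.66 CPM (*Gli1*-) in *Pdgfra* cells. *Hoxc6* had 10.5, 5.40 and 7.27 CPM and 7.04, 5.57 and 6.85 CPM. *Hoxc5* had 7.95, 4.22 and 5.58 CPM and 4.78, 3.90 and 5.87 CPM. In GENCODE M21 the span listed for *Hoxc5* covers *Hoxc6*, *Hoxc8*, *Hoxc9* and *Hoxc10*, that of *Hoxa3* covers *Hoxa4* to *Hoxa6*, and *Hoxd3* and *Hoxd4* overlap. How such reads were split, and whether strand was used, is not given in the sources used here, so these levels are uncertain as to which gene they belong to.

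The 13 paralogs, which act in the hand and foot plate, were low. *Hoxa13* had 7.78 (6.28 to 9.53), 3.60 and 6.07 CPM (*Gli1*+) against 0.875 (0.549 to 1.33), 2.94 and 5.03 CPM (*Gli1*-) in *Pdgfra* cells. *Hoxc13* had 2.17, 0.617 and 0.682 CPM and 0.836, 0.370 and 0.785 CPM. *Hoxd13* had 0.335 CPM in uninjured *Gli1*+ cells and at most 0.126 CPM in the others, and *Hoxb13* had no UMI. The uninjured *Gli1*+ library was the highest of 6 for *Hoxa13*, *Hoxc13* and *Hoxd13*. The other HoxB genes from *Hoxb2* to *Hoxb9* had at most 1.23 CPM in *Pdgfra* cells, and *Hoxb1*, *Hoxb13* and *Hoxd1* had 0 UMIs in all 6 libraries. *Hoxd12* had 1 UMI in all. *Hoxa2*, *Hoxa4*, *Hoxa6*, *Hoxc12*, *Hoxd3* and *Hoxd4* reached at most 0.585 CPM, and *Hoxa3*, *Hoxa5*, *Hoxc8* and *Hoxd10* lay between 0.478 and 7.69 CPM.

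**Figure D1:**
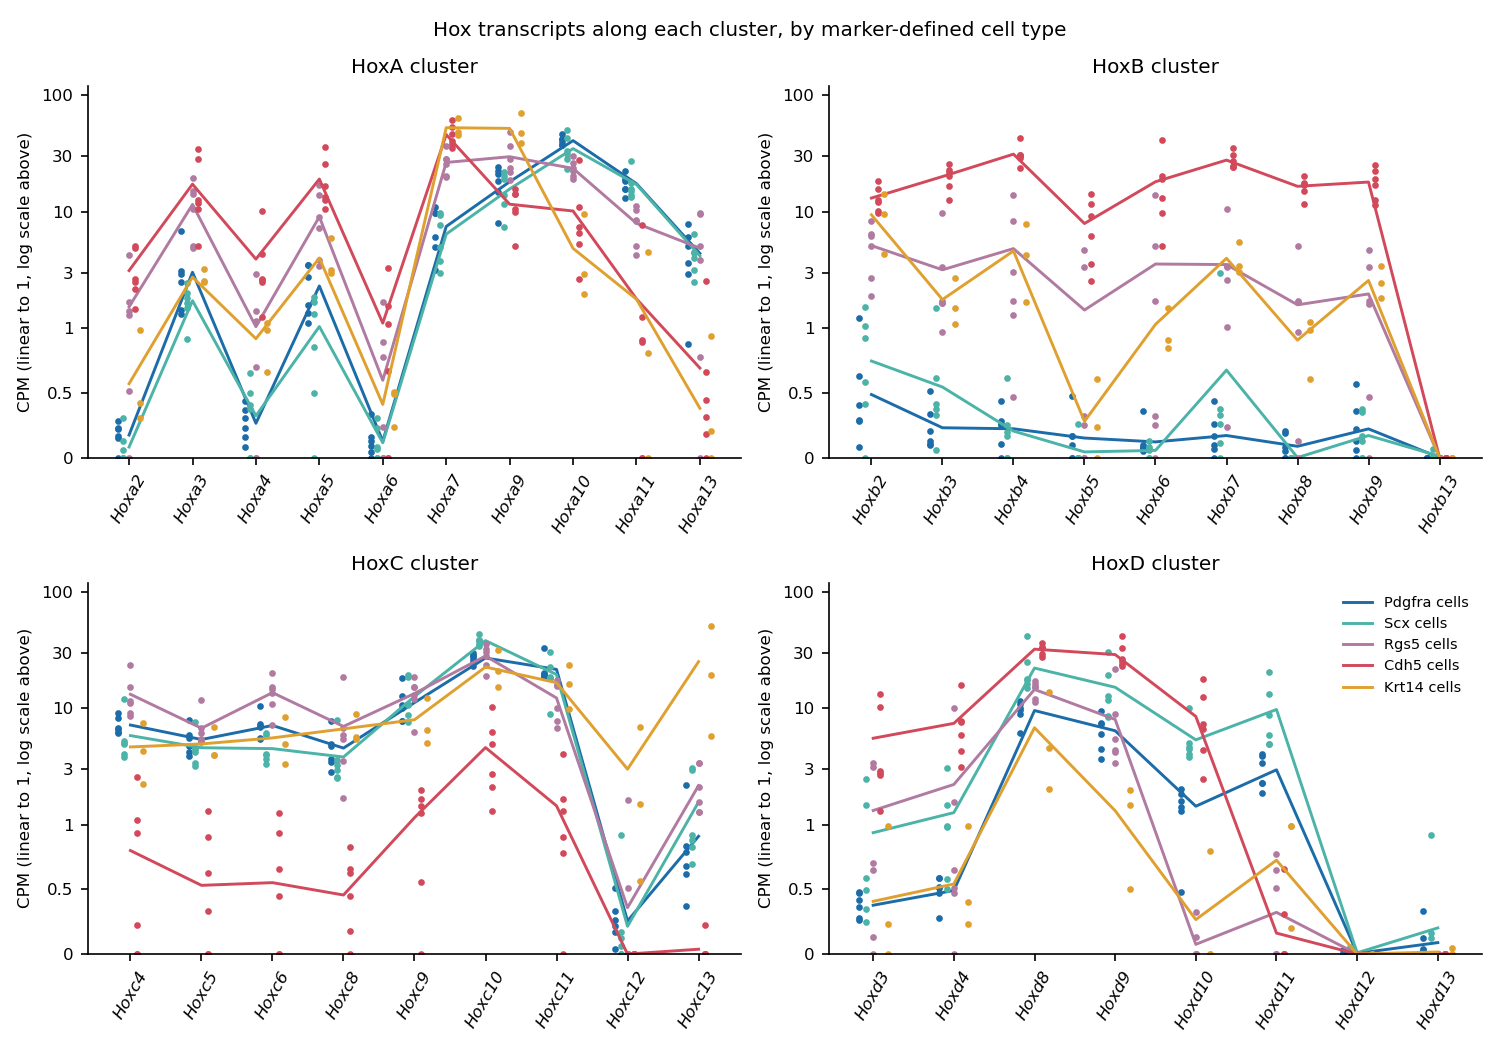
Levels of the Hox genes from paralog 2 up in CPM (y axis, linear to 1 and logarithmic above) along the 4 clusters (x axis), with 1 point per library and a line through the mean of the libraries for 5 cell types. HoxB genes were near 0 in *Pdgfra* and *Scx* cells and highest in *Cdh5* cells, HoxC genes were low in *Cdh5* cells, and *Hoxc13* stood out in *Krt14* cells.

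The cell types were compared with *Pdgfra* cells by edgeR's quasi-likelihood test on counts summed per type and time point, both sorts together, with the time point as a block. All adjusted p-values between cell types below are from this test, with Benjamini-Hochberg adjustment over 19309 genes, and 34 of the 39 members passed its filter on low counts. The p-values measure the spread between 3 pools that differ in time point and sex, and all comparisons share the *Pdgfra* sums. The uninjured pool joins sorts of unlike sex, with *Xist* alone in 68.7% of *Gli1*+ cells and 0% of *Gli1*- cells. Over all genes, 13.3% were higher and 18.4% lower in *Cdh5* cells, 8.03% and 11% in *Rgs5* cells, 18% and 27.5% in *Krt14* cells, 0.658% and 1.25% in *Scx* cells, 2.89% and 3.19% in *Col2a1* cells, and 22.6% and 22.1% in *Ptprc* cells.

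*Cdh5* cells expressed *Hoxb2* to *Hoxb9*, *Hoxa2* to *Hoxa7* and *Hoxd3* to *Hoxd10* above the level of *Pdgfra* cells, and had low levels of HoxC genes and of 11 and 13 paralogs. Of the 34 members tested, 19 were higher and 13 lower than in *Pdgfra* cells, and their median log2 fold change was 1.989, against -0.1177 over all genes. All 8 genes from *Hoxb2* to *Hoxb9* rose. *Hoxb7* had 27.3, 30.6 and 24.4 CPM (*Gli1*+) against 35.1, 24.9 and 24.1 CPM (*Gli1*-) in *Cdh5* cells, against 0 to 0.438 CPM in *Pdgfra* cells (log2 fold change 6.99, SE 0.61, adjusted p = 1.10e-05). *Hoxb4* had 43.0, 30.6 and 30.3 CPM and 28.9, 23.7 and 30.6 CPM, against 0 to 0.438 CPM (6.69, SE 0.58, adjusted p = 1.47e-05). The ranges of these genes did not overlap between *Cdh5* and *Pdgfra* cells.

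The other HoxB genes were lower in level but as separate. Over the 6 libraries *Hoxb3* ranged from 12.5 to 25.7 CPM, *Hoxb8* from 11.6 to 20.4 CPM, *Hoxb9* from 11.5 to 25 CPM and *Hoxb2* from 9.66 to 18.4 CPM in *Cdh5* cells. *Hoxb6* varied more, with 41.4, 5.09 and 20.4 CPM (*Gli1*+) against 18.9, 9.66 and 13 CPM (*Gli1*-), and *Hoxb5* ranged from 2.55 to 14.3 CPM. The 7 dpi *Gli1*+ library, with 63 *Cdh5* cells the smallest, was the lowest for both genes. In the *Pdgfra* cells these 6 genes reached at most 1.23 CPM. Their log2 fold changes lay between 4.47 for *Hoxb2* (SE 0.58, adjusted p = 1.93e-04) and 6.91 for *Hoxb8* (SE 0.82, adjusted p = 1.53e-04).

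In HoxA and HoxD the sign turned along the cluster. *Hoxa2* to *Hoxa7* were all higher in *Cdh5* cells, with log2 fold changes of 2.43 to 3.38, and *Hoxa9*, *Hoxa10*, *Hoxa11* and *Hoxa13* were all lower. *Hoxa7* had 53.0, 38.2 and 40.2 CPM (*Gli1*+) against 61.8, 35.5 and 46.9 CPM (*Gli1*-) in *Cdh5* cells (2.52, SE 0.27, adjusted p = 3.56e-05) and was the member with the highest level there. *Hoxa10*, the leading member of *Pdgfra* cells, had 6.62, 28.0 and 2.63 CPM and 5.27, 10.9 and 7.38 CPM (-2.65, SE 0.42, adjusted p = 4.76e-04). Both 7 dpi libraries had the highest *Hoxa10* of their sort. In the same 7 dpi cells the summed *Pdgfra* marker list (*Pdgfra*, *Col1a1*, *Col3a1*, *Dcn*, *Lum* and *Prrx1*) was 8646 and 7119 CPM, against 525 to 3166 CPM in the *Cdh5* cells of the other 4 libraries, and its part in the *Hoxa10* level was not tested. *Hoxa11* had 0, 7.64 and 0 CPM and 0.908, 1.25 and 0.894 CPM in *Cdh5* cells, against 13 to 22.2 CPM in *Pdgfra* cells (-4.28, SE 0.64, adjusted p = 3.45e-04).

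In HoxD, *Hoxd3*, *Hoxd4*, *Hoxd8*, *Hoxd9* and *Hoxd10* were higher in *Cdh5* cells and *Hoxd11* was lower. *Hoxd9* had 41.4, 25.5 and 32.9 CPM (*Gli1*+) against 24.0, 26.5 and 22.9 CPM (*Gli1*-) in *Cdh5* cells. *Hoxd11*, its neighbour past *Hoxd10*, had a total of 2 UMIs in all *Cdh5* cells (-4.98, SE 0.75, adjusted p = 3.66e-04). All 9 HoxC genes had negative log2 fold changes, and 8 passed the test. *Hoxc10* had 4.96, 10.2 and 1.32 CPM and 2.72, 6.23 and 2.12 CPM in *Cdh5* cells (-3.17, SE 0.38, adjusted p = 7.64e-05). *Hoxc8* reached at most 0.827 CPM, against 2.85 to 7.69 CPM in *Pdgfra* cells (-3.55). The HoxC gene that did not pass was *Hoxc12*, with 0 UMIs in *Cdh5* cells.

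*Krt14* cells had high *Hoxa7* and *Hoxa9*, low *Hoxa10* and *Hoxa11*, and HoxC genes with the distal *Hoxc13* among them. Of the 34 members 10 were higher and 6 lower than in *Pdgfra* cells, with a median log2 fold change of 0.4202, against -0.2549 over all genes. *Hoxc13*, known for its part in hair and nail keratinocytes, had 50.3 (41.0 to 61.1), 5.73 (4.76 to 6.84) and 19.2 (16.5 to 22.1) CPM in the *Gli1*+ *Krt14* cells of uninjured tendon, 7 and 21 dpi, against 0.370 to 2.17 CPM in *Pdgfra* cells (4.50, SE 0.56, adjusted p = 9.44e-05). The 3 *Krt14* values were far apart beyond counting error and all above every *Pdgfra* library. *Hoxa13* moved the other way, with 0, 0.940 and 0.202 CPM (-2.93). The neighbour *Hoxc12* had 6.91, 0.564 and 1.51 CPM and did not pass (2.62, adjusted p = 0.0692).

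*Hoxa7* had 64.1, 45.4 and 48.3 CPM in *Krt14* cells (2.80, SE 0.27, adjusted p = 2.16e-05) and *Hoxa9* had 70.1, 38.6 and 47.1 CPM (1.46, SE 0.22, adjusted p = 3.21e-04). They were the members with the highest levels of these cells in all 3 libraries. *Hoxa10* had 1.97, 9.63 and 2.92 CPM (-3.09, SE 0.43, adjusted p = 1.83e-04) and *Hoxa11* had 0, 4.51 and 0.807 CPM (-3.12). The 7 dpi library was highest for both, and the *Pdgfra* marker list summed to 11070 CPM in its *Krt14* cells, against 391 and 1529 CPM in the uninjured and 21 dpi ones. The part of that list's RNA in these levels was not tested.

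Of the 8 HoxB genes from *Hoxb2* to *Hoxb9*, 7 rose in *Krt14* cells, with values below those of *Cdh5* cells for most. *Hoxb2* had 14.3, 4.32 and 9.58 CPM (4.11, SE 0.59, adjusted p = 2.78e-04). *Hoxb4* had 7.89, 1.69 and 4.23 CPM (3.93, SE 0.56, adjusted p = 2.68e-04), and *Hoxb7* had 3.45, 3.05 and 5.44 CPM (4.52, SE 0.59, adjusted p = 1.24e-04). *Hoxb3*, *Hoxb6*, *Hoxb8* and *Hoxb9* ranged from 0.605 to 3.45 CPM. In HoxD, *Hoxd9*, *Hoxd10* and *Hoxd11* were lower, with 1.48, 1.97 and 0.504 CPM for *Hoxd9* (-2.14) and at most 0.987 CPM for *Hoxd10* and *Hoxd11*. Without the 21 dpi pool 1 member in place of 6 was lower in *Krt14* cells. The share of all genes lower in that fit is not given, so this count does not compare Hox genes with others. *Hoxc10* had 31.6, 15.1 and 21.0 CPM and *Hoxc11* had 23.7, 9.77 and 16.2 CPM, and neither passed the test.

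*Rgs5* cells had *Hoxc10* at 19.0 to 35.6 CPM, a range that overlaps that of *Pdgfra* cells, and more of the low-numbered genes. The *Pdgfra* marker list in these *Rgs5* cells was 1370 and 2959 CPM in the uninjured libraries and 9519 to 13621 CPM after injury, highest in the *Gli1*- library at 7 dpi, where *Hoxc10* was 35.6 CPM, and its part in the Hox levels was not tested. Of the 34 members 12 were higher and 2 lower, with a median log2 fold change of 0.8154, against -0.1186 over all genes. *Hoxa7* had 28.5, 20.3 and 28.4 CPM (*Gli1*+) against 36.4, 19.7 and 25.5 CPM (*Gli1*-) in *Rgs5* cells (1.64, SE 0.27, adjusted p = 0.00131), above every *Pdgfra* library. *Hoxa10* had 20.1, 23.7 and 30 CPM and 19.0, 26.2 and 22.2 CPM, all below the *Pdgfra* libraries, but did not pass (-1.13, adjusted p = 0.0607). The members that fell were *Hoxd10*, with 0.323 CPM at most (-3.82, SE 1.1, adjusted p = 0.0242), and *Hoxd11*, with 0.775 CPM at most (-2.87, SE 0.59, adjusted p = 0.00544).

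In *Rgs5* cells 7 HoxB genes rose. *Hoxb4* had 8.39, 1.70 and 0.469 CPM (*Gli1*+) against 14, 1.29 and 3.06 CPM (*Gli1*-) in *Rgs5* cells (3.72, SE 0.57, adjusted p = 0.00119). *Hoxb6* had 5.04, 1.70 and 0 CPM and 14, 0.323 and 0.255 CPM (3.84, SE 0.83, adjusted p = 0.00705). *Hoxb7* had 3.36, 3.39 and 0.234 CPM and 10.5, 2.59 and 1.02 CPM (3.78, SE 0.61, adjusted p = 0.00125). The uninjured *Gli1*- library was the highest of 6 for each of these genes. Its *Rgs5* cells also had the highest *Cdh5* marker list, at 1367 CPM against 111 to 319 CPM in the other 5, and the part of that RNA in the HoxB levels was not tested. *Hoxb2* had 8.39, 5.09 and 1.87 CPM and 6.20, 6.47 and 2.68 CPM (3.01, SE 0.58, adjusted p = 0.00432). Without the 7 dpi pool 6 members in place of 12 were higher, and the 2 lower members became 1 without the uninjured pool and 0 without the 7 dpi or the 21 dpi pool. Shares of all genes called without a pool are not given, so these counts do not compare Hox genes with others.

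In *Scx* cells, no member passed the test against *Pdgfra* cells by edgeR in either direction, while at an unadjusted p under 0.05 there were 5 higher and 2 lower of 34, where 5.80% of genes were higher and 9.18% lower. DESeq2 called 2 higher (2.98% of genes, with 3.29% lower). With the 6 libraries as units and the library as block, edgeR called 5 higher and 1 lower, where 6.24% and 8.48% of genes were called. That setting counts the sorts of a time point as separate units though they are not replicates, so it adds no independent evidence. The 5 higher at an unadjusted p were all HoxD genes. *Hoxd11*, which takes part in forearm and lower leg patterning, had 20.6, 8.78 and 4.88 CPM (*Gli1*+) against 13.3, 5.91 and 4.96 CPM (*Gli1*-) in *Scx* cells, all above the *Pdgfra* libraries (1.63, SE 0.44, adjusted p = 0.0854). *Hoxd10* had 10.1, 5.02 and 4.65 CPM and 4.45, 3.81 and 4.05 CPM, again without overlap (2.1, SE 0.59, adjusted p = 0.103). *Hoxd9* had 30.1, 8.40 and 11.7 CPM and 19.3, 8.53 and 12.7 CPM (1.23, adjusted p = 0.167). In each sort the uninjured library was the highest for these 3 genes. Its 77 *Scx* cells in *Gli1*- held only 9 UMIs of *Hoxd11*, 3 of *Hoxd10* and 13 of *Hoxd9*. For *Hoxd10* in *Gli1*- this order thus lies within counting error. The *Scx* marker list in the same cells was likewise highest in the uninjured libraries, at 12983 and 9241 CPM, against 2765 to 6140 CPM after injury, and what part it has in the Hoxd levels was not tested. The adjusted p-values of *Hoxd4* and *Hoxd8* were 0.142 and 0.190.

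The leading members of *Pdgfra* cells, *Hoxa10* and *Hoxc10*, were also high in *Scx* cells, but not at the same levels. *Hoxa10* had 50, 23.3 and 33 CPM (*Gli1*+) against 43.0, 28.2 and 31.3 CPM (*Gli1*-) in *Scx* cells, and *Hoxc10* had 38.1, 35.6 and 38.6 CPM and 43.0, 34.3 and 38.6 CPM. *Hoxc10* was above its highest *Pdgfra* level in all 6 libraries but did not pass the test. *Hoxa10* was above its *Pdgfra* level in uninjured tendon and below it at 7 and 21 dpi, in both sorts. At 7 dpi it had 23.3 (*Gli1*+) and 28.2 CPM (*Gli1*-) in *Scx* cells, against 41.7 and 46.0 CPM in *Pdgfra* cells. It did not pass either (-0.19, adjusted p = 0.885).

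*Col2a1* cells reached 50 cells in both 21 dpi libraries and in no other, and the fit had pools of both sorts from 7 and 21 dpi. No member passed by edgeR, and at an unadjusted p under 0.05 there were 0 higher (7.20% of genes) and 3 lower (13.8%), of which *Hoxa10* (27.1 and 21.5 CPM in *Gli1*+ and *Gli1*- cells) had a log2 fold change of -1.02 (adjusted p = 0.226). The others were *Hoxc6* and *Hoxd3*. *Hoxc10* was the highest member, at 51.4 and 52.9 CPM (0.73, adjusted p = 0.289). *Hoxd11* was at 0.248 and 1.09 CPM, which is below the range of the 6 *Pdgfra* libraries.

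*Ptprc* cells had the lowest Hox level of the types. Their summed Hox level was 11.9 CPM (10.7 to 13.2), from 383 UMIs in 3740 cells, against 254 CPM in *Pdgfra* cells of the same library. Of the members 19 were lower and 0 higher in this 1 pool, whose spread the fit assumes to be that of the other types, and at an unadjusted p under 0.05 *Hoxb4* was higher (1.74, adjusted p = 0.0690), where 25.8% of genes were higher and 26.4% lower. *Hoxb4* was at 1.43 CPM, *Hoxa7* and *Hoxa9* at 1.03 CPM and *Hoxa10* at 0.777 CPM. The other members were lower still.

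The share of each cluster among all Hox UMIs set *Cdh5* apart from *Pdgfra* cells in every library, most widely for HoxB and HoxC. HoxA took 26.2% to 37.1% in *Cdh5* and 41.4% to 49.6% in *Pdgfra* cells, and its shares overlapped between most other types. HoxB took 37.4% to 48.3% of the Hox UMIs of *Cdh5* cells and 0.325% to 1.82% of those of *Pdgfra* cells. HoxC took 1.68% to 5.04% in *Cdh5* and 38.4% to 48.7% in *Pdgfra* cells. HoxD took 18.9% to 31.1% in *Scx* cells and 18.4% to 26.6% in *Cdh5* cells. Its share was 8.09% to 13.2% in *Pdgfra* cells and 1.43% to 5.15% in *Krt14* cells. HoxB varied most in *Rgs5* cells, with 10.1%, 8.00% and 1.86% (*Gli1*+) against 24.0%, 6.27% and 3.71% (*Gli1*-). By position along the clusters, 10 paralogs led in *Pdgfra* cells in every library with 27.3% to 40.9%, and paralogs 4 to 8 took 19.4% to 23.8%, 11 paralogs 18.1% to 23.2% and 9 paralogs 14.6% to 20.1%. In *Cdh5* cells paralogs 4 to 8 took 54.0% to 64.2% and 11 paralogs 0.350% to 2.16%. In *Ptprc* cells HoxA, HoxB, HoxC and HoxD took 34.2%, 21.1%, 26.6% and 18%.

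**Figure D2:**
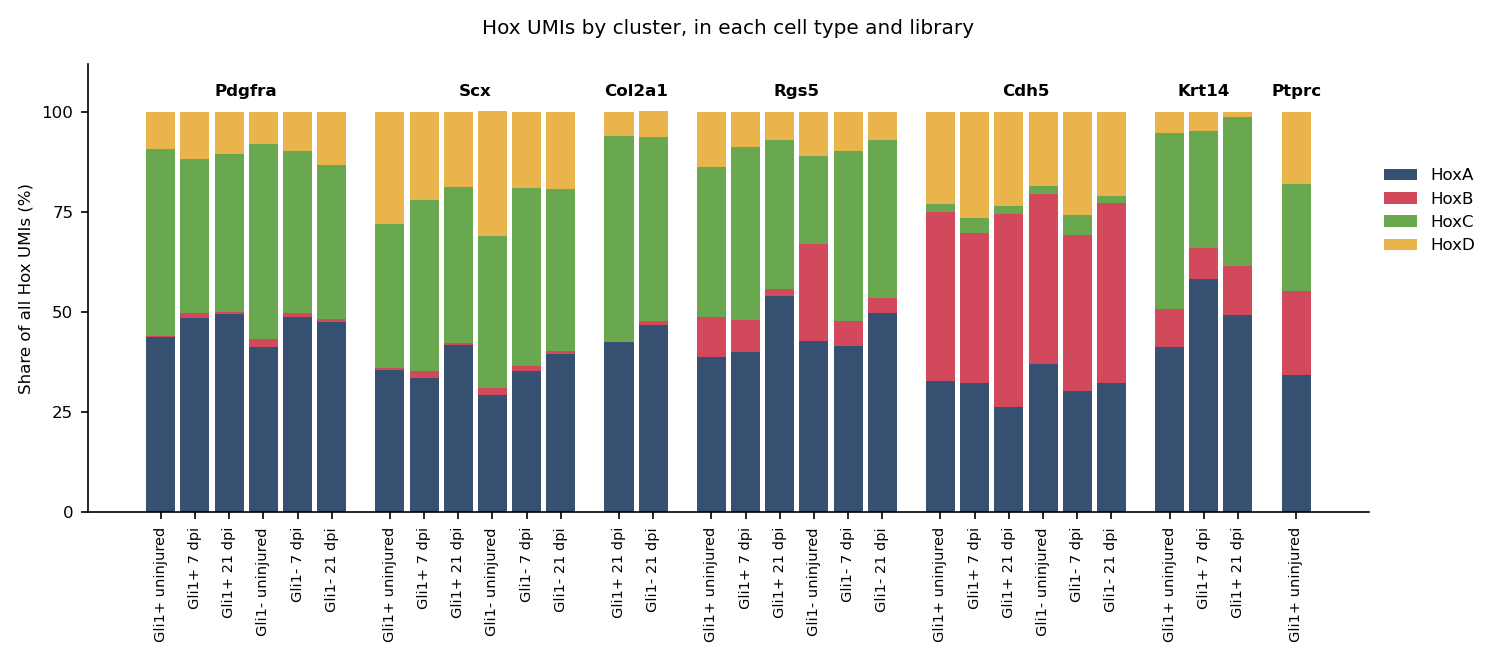
Share of all Hox UMIs (y axis, percent) from each of the 4 clusters, as stacked bars, 1 per library with at least 50 cells of the type. The HoxB part was 37.4% to 48.3% in *Cdh5* cells and under 2% in *Pdgfra* and *Scx* cells, and it varied most among libraries in *Rgs5* cells.

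Single cells held few Hox UMIs, so the share of cells with any was read after thinning each cell to 2000 UMIs. It was 36.5%, 31.4% and 35.4% (*Gli1*+) against 26.9%, 31.6% and 34.2% (*Gli1*-) in *Pdgfra* cells, and 59.3% to 82.3% before thinning. *Cdh5* cells had the highest share in each library, with 60.7%, 51.8% and 51.4% (*Gli1*+) against 52.5%, 42.5% and 44.4% (*Gli1*-). Their summed level was also the highest of the types, at 290 to 473 CPM. Thinning left out 313 of the *Cdh5* and 333 of the *Rgs5* cells of the uninjured *Gli1*- library, the shallowest. *Rgs5* cells had 46.2%, 44.5% and 42.8% and 39.6%, 39.1% and 39.3%. In *Ptprc* cells, which come from outside the limb mesenchyme, the share was 1.81% (1.4% to 2.29%; 5.35% before thinning, at a median depth of 7761.5 UMIs, against 8973 for *Pdgfra* cells of that library).

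**Figure D3:**
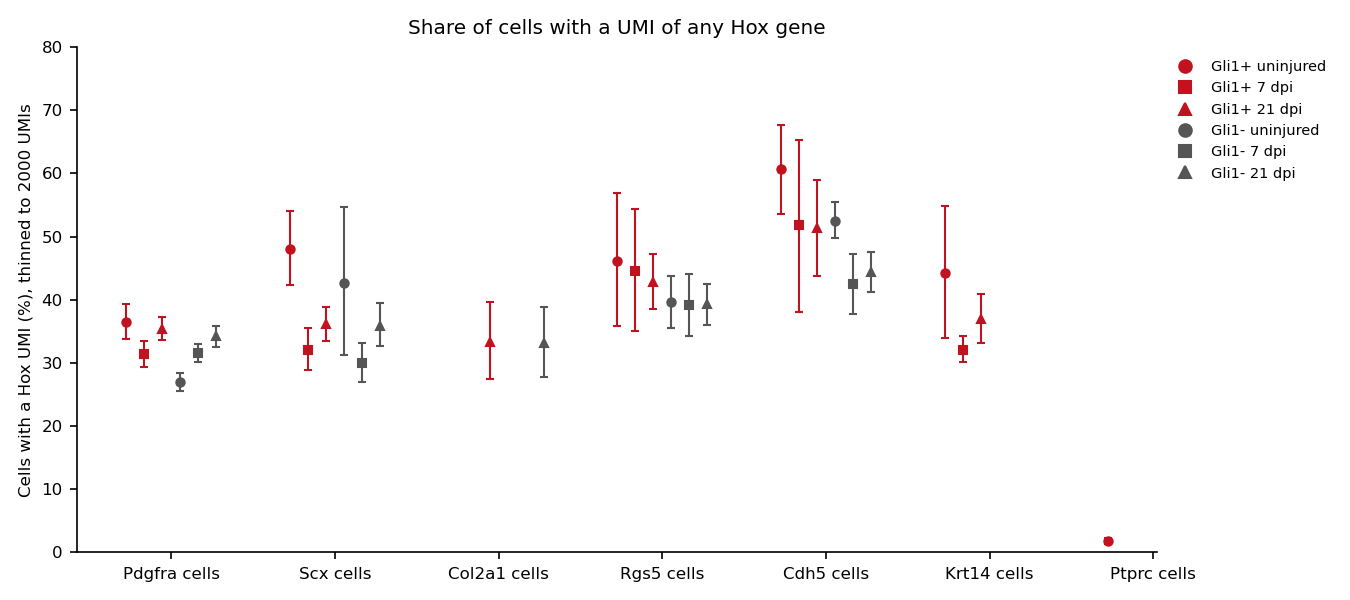
Share of cells with at least 1 UMI of any Hox gene (y axis, percent) after thinning to 2000 UMIs, by type, with 1 point per library and exact binomial 95% intervals. *Cdh5* cells had the highest share in each library, *Ptprc* cells stood at 1.81%, and uninjured *Gli1*- *Pdgfra* cells were the lowest of the 6 *Pdgfra* values, at 26.9%.

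Between the sorts, *Pdgfra* cells of uninjured tendon differed in Hox levels beyond 2-fold for part of the members, and those of injured tendon for none of the members compared. In edgeR's test over the 3 time points, 23 members were tested and 0 passed, with 0 at an unadjusted p under 0.05, where 2.88% of genes were higher and 3.92% lower. Of all 16354 genes, 0% were higher and 0% lower after adjustment. DESeq2 called 0 members, with 1 at an unadjusted p under 0.05, and 0.544% of genes higher and 0.783% lower. *Hoxa13* had the value 1.01 (SE 0.57, adjusted p = 0.735) and *Hoxa9* 0.57 (adjusted p = 0.732). The ratio at each time point was therefore read with its counting interval, a choice made after seeing the data. The sorts rest on the reporter and not on *Gli1* RNA. In *Pdgfra* cells that RNA was at 16.5, 2.11 and 3.57 CPM (*Gli1*+) against 9.15, 2.48 and 3.90 CPM (*Gli1*-).

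At the uninjured stage 20 members had at least 20 UMIs in the pair of libraries, and all 20 were higher in *Gli1*+ cells, 10 of them past 2-fold, where 11.1% of genes were past 2-fold higher and 5.53% lower. The members' median log2 ratio was 0.92, against 0.12 over all genes. Under TMM scaling, which moves all genes by -0.15 here, 6 were past 2-fold. The share of all genes past 2-fold under TMM is not given, so this count does not compare Hox genes with others. The shift takes *Hoxa10* (0.02) below 0 and *Hoxc4* (0.15) to about 0. *Hoxa13* had the widest ratio (3.15, interval 2.47 to 3.89), from 7.78 against 0.875 CPM. *Hoxd10* followed from 1.84 against 0.478 CPM (1.95, 0.87 to 3.09), then *Hoxa7* (1.62, 1.20 to 2.05) and *Hoxa9* (1.47, 1.20 to 1.74). *Hoxa3* was at 6.86 against 2.51 CPM (1.45, 0.96 to 1.95) and *Hoxa5* at 3.51 against 1.59 CPM (1.14, 0.48 to 1.80). In HoxD, *Hoxd11* and *Hoxd9* were also past 2-fold, and in HoxC this held for *Hoxc8* (7.69 against 3.66 CPM) and *Hoxc13*. *Hoxa10*, the leading member, was at 0.02 (-0.14 to 0.19) and *Hoxc10* at 0.36 (0.17 to 0.55). No HoxB gene reached 20 UMIs in this pair, and *Hoxb2* to *Hoxb9* were each at a lower level in *Gli1*+ cells. They had 1, 4, 3, 2, 1, 0, 0 and 0 UMIs (*Gli1*+) against 7, 13, 11, 12, 9, 11, 2 and 9 UMIs (*Gli1*-). Their levels were 0 to 0.335 CPM against 0.0796 to 0.517 CPM.

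Marker lists of other types moved with these ratios. In the uninjured *Pdgfra* cells the *Scx* list was 558 CPM (*Gli1*+) against 189 CPM (*Gli1*-), the *Col2a1* list 628 against 138 CPM, the *Cdh5* list 21.0 against 97.3 CPM and a Schwann cell list 3.60 against 28.6 CPM, and their part in the ratios was not tested. The libraries also differ in sex. No kept cell of the uninjured *Gli1*- library had *Xist* alone, so the uninjured sorts did not come from the same set of mice. In cells with Y-linked UMIs alone, 18 members could be compared, of which 18 were higher in *Gli1*+ cells and 8 past 2-fold, where 9.51% of genes were past 2-fold higher and 6.32% lower, with a median of 0.98 against 0.11 over all genes. *Hoxa9* was then at 1.69 and *Hoxa7* at 1.83. *Hoxa13* was at 5.93 against 0.849 CPM (2.80, 1.74 to 3.86), from 17 UMIs on each side.

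At 7 dpi none of the 25 members compared was past 2-fold in either direction, where 4.38% of genes were higher and 2.16% lower. Their median log2 ratio was 0.27, against 0.02 over all genes, and 20 of 25 were above 0. At 21 dpi none of 24 was past 2-fold, where 1.47% of genes were higher and 2.34% lower, and the median was -0.06. *Hoxd11* and *Hoxd9* were then lower in *Gli1*+ cells, at -0.76 (-1.20 to -0.32) and -0.39 (-0.64 to -0.13), the opposite sign to uninjured tendon. Whether the ratios differ between time points was not tested.

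**Figure D4:**
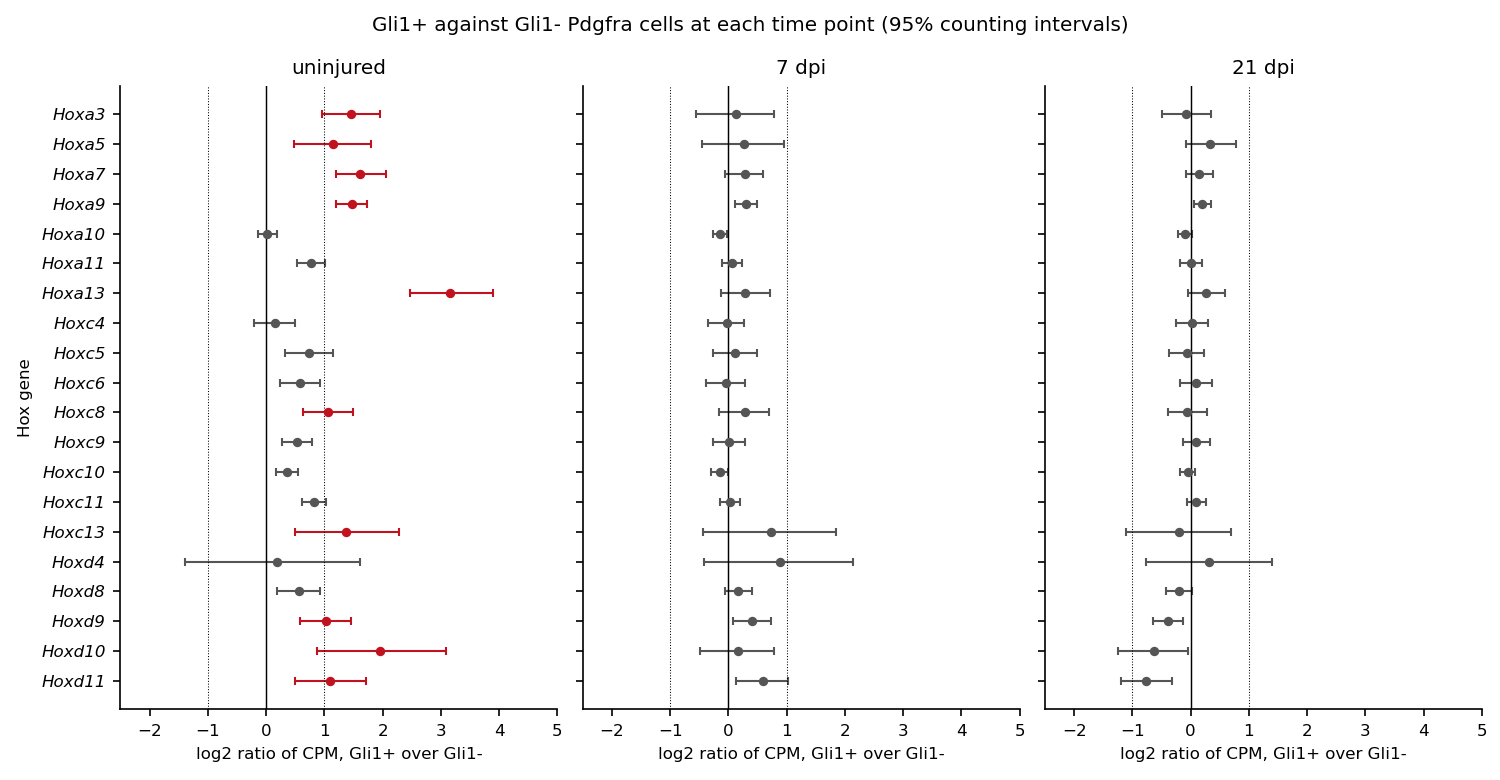
Log2 ratio of CPM in *Gli1*+ over *Gli1*- *Pdgfra* cells (x axis) for the 20 Hox genes with at least 20 UMIs in uninjured tendon (y axis), at the 3 time points, with 95% counting intervals and dotted lines at 2-fold. Red points are past 2-fold. There were 10 of these in uninjured tendon, with *Hoxa13* the furthest at 3.15, and 0 at 7 and 21 dpi.

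Most Hox genes compared in *Gli1*+ *Pdgfra* cells were at lower levels at 7 dpi than in uninjured tendon. At 7 dpi 1 of 20 members was past 2-fold higher and 6 lower, where 13.4% of genes were higher and 18.7% lower, and 17 of 20 ratios were below 0 with a median of -0.64, against -0.16 over all genes. *Hoxa3* was at 1.44 CPM (log2 ratio -2.25, -2.93 to -1.62), *Hoxa5* at 1.34 CPM (-1.39, -2.16 to -0.65) and *Hoxc8* at 3.45 CPM (-1.16, -1.64 to -0.69). *Hoxc9* (-1.23, -1.54 to -0.93), *Hoxc13* (-1.82, -2.94 to -0.78) and *Hoxa13* (-1.11, -1.58 to -0.65) were the others. *Hoxc11* was at -0.72 (-0.93 to -0.51), while *Hoxa10* (0.14, -0.02 to 0.31) lay within counting error. Under TMM scaling, a shift of 0.17, 4 were past 2-fold lower, and the share of all genes past 2-fold lower with this scaling is not given. In the same cells the *Rgs5* marker list went from 155 to 578 CPM and the *Krt14* list from 17.6 to 872 CPM. Their part in these ratios was not tested.

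*Hoxb2* was the member past 2-fold higher, from 24 UMIs against 1 (3.88, 1.27 to 9.25). The *Krt14* marker list in these *Pdgfra* cells was 872 CPM at 7 dpi but 17.6 CPM before injury, and *Krt14* cells of that library had 4.32 CPM of *Hoxb2*, and the part of that RNA in this ratio was not tested. In cells with Y-linked UMIs alone *Hoxb2* had 23 UMIs against 0, which gives no ratio. Among 20 members of those cells 0 were past 2-fold higher and 7 lower, where 13.6% of genes were higher and 17.2% lower, and *Hoxa13* was at -0.70 (-1.50 to 0.17).

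At 21 dpi 0 of 20 members were past 2-fold higher and 2 lower in *Gli1*+ *Pdgfra* cells, where 9.32% of genes were higher and 18.8% lower. These were *Hoxa3*, at 2.92 CPM (-1.23, -1.68 to -0.78), and *Hoxc13* (-1.67, -2.58 to -0.79). The members past 2-fold thus made up smaller shares than among all genes. Of the 20 ratios 16 were below 0, with a median of -0.46, against -0.27 over all genes. TMM scaling shifts all ratios by 0.24 here. Among cells with *Xist* alone 0 of 20 were higher (9.76% of genes) and 1 lower (17.0%), *Hoxa3* (-1.15). In these *Pdgfra* cells the *Scx* marker list was 1203 CPM at 21 dpi but 558 CPM before injury and the *Krt14* list 104 but 17.6 CPM, and their part in the ratios was not tested.

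In *Gli1*- *Pdgfra* cells the members past 2-fold at 7 dpi were near the shares of all genes, and at 21 dpi those past 2-fold were higher with the filters used. At 7 dpi 4 of 28 members were past 2-fold higher and 4 lower, where 14.5% of genes were higher and 15.7% lower, and the median of -0.11 was near the -0.07 of all genes. *Hoxa13* (1.75, 1.10 to 2.46) and *Hoxd10* (0.478 to 1.42 CPM; 1.58, 0.69 to 2.59) were higher, together with *Hoxa4* and *Hoxb2*, whose intervals reach below 0 (1.22, -0.36 to 3.22, and 1.17, -0.02 to 2.59). Those lower were *Hoxb3*, *Hoxb5*, *Hoxb7* and *Hoxc13*, of which the HoxB genes were at 0.517, 0.478 and 0.438 CPM in uninjured cells, and *Hoxb7* had an interval up to 0.01. *Hoxa9* was at 0.88 (0.66 to 1.11) and *Hoxc9* at -0.72. The summed *Cdh5* marker list was 97.3 CPM in the uninjured and 39.3 CPM in the 7 dpi cells, and its part in the HoxB values was not tested. Over the same cells the *Scx* list went from 189 to 490 CPM and the *Col2a1* list from 138 to 562 CPM, and their part in the ratios of *Hoxa13*, *Hoxd10* and the others was not tested. In cells with Y-linked UMIs alone 3 of 25 were higher and 2 lower, where 14.6% of genes were higher and 16% lower.

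At 21 dpi 6 of 23 members were past 2-fold higher and 0 lower in *Gli1*- *Pdgfra* cells, where 13.2% of genes were higher and 16.3% lower, and the median was 0.30, against -0.10 over all genes. The 0 lower members became 3 without doublet removal and 4 without the cell filters, settings for which the share of all genes is not given. Those higher were *Hoxa13* (2.52, 1.87 to 3.24), *Hoxd10* (2.01 against 0.478 CPM; 2.07, 1.17 to 3.1), *Hoxa7* (1.63, 1.27 to 2.0), *Hoxa9* (1.39, 1.16 to 1.62), *Hoxd9* (1.38, 1.04 to 1.74) and *Hoxd11* (1.06, 0.56 to 1.57). *Hoxa10* was at 0.19 and *Hoxc11* at 0.02. The uninjured *Gli1*- library is male and the 21 dpi library female, so that injury and sex cannot be told apart here. In the same cells the *Scx* list was 1226 CPM at 21 dpi but 189 CPM before injury, and the *Col2a1* list 835 and 138 CPM, and their part in these ratios was not tested. Levels of *Hoxd9*, *Hoxd10* and *Hoxd11* in *Scx* cells are given above. Both injury comparisons of a sort also share 1 uninjured library.

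**Figure D5:**
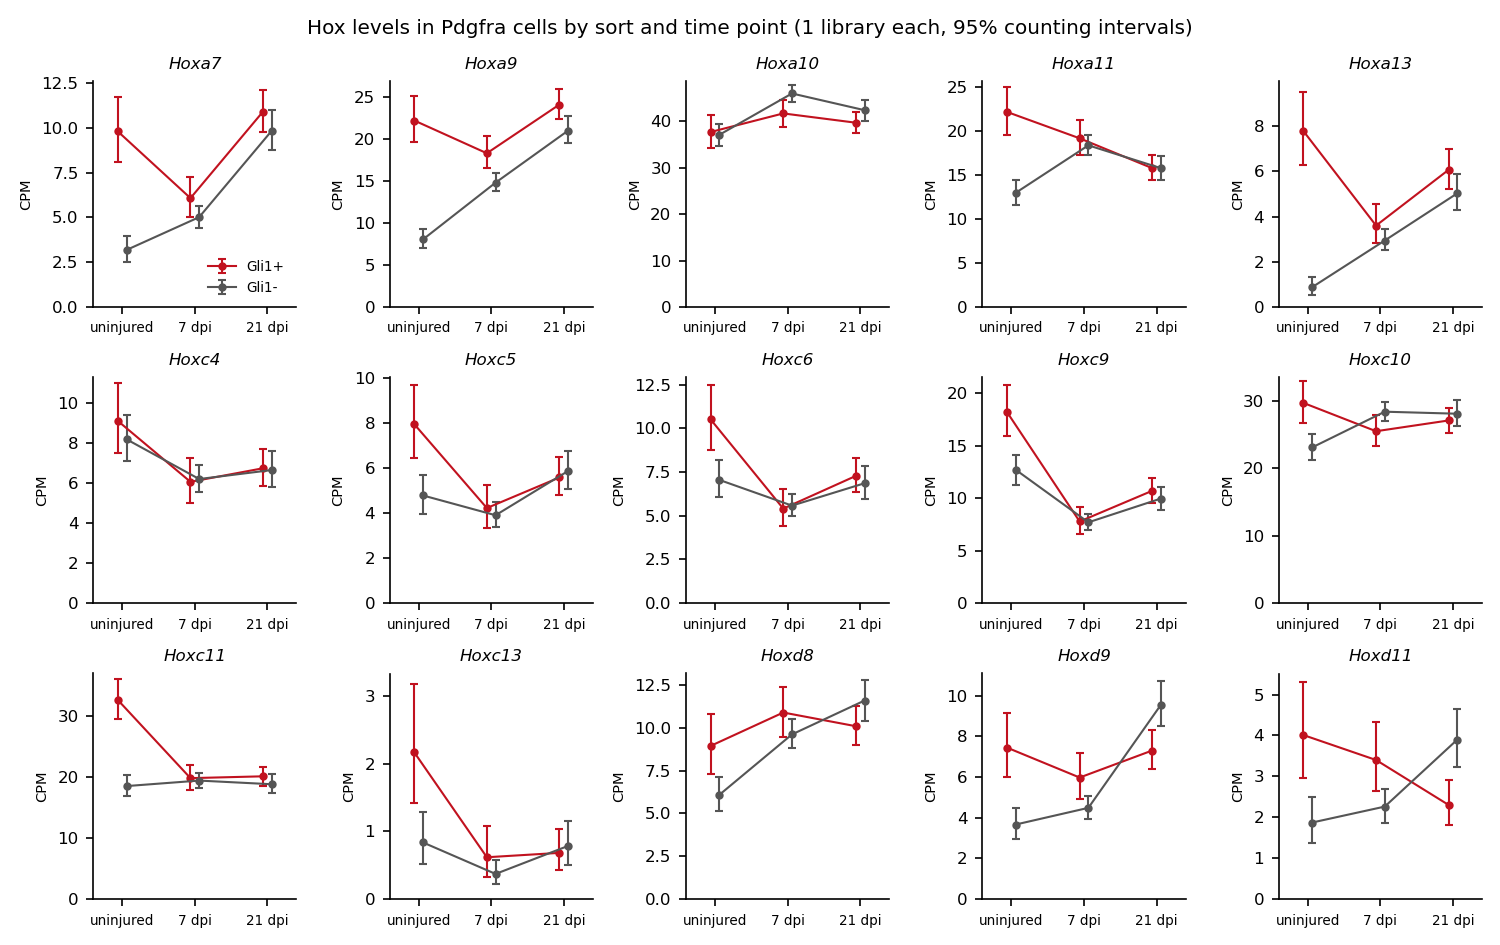
CPM (y axis, from 0) of 15 Hox genes in *Gli1*+ (red) and *Gli1*- (grey) *Pdgfra* cells by time point (x axis), 1 library each, with exact Poisson 95% intervals. *Hoxa7*, *Hoxa9*, *Hoxa13* and *Hoxc11* had uninjured intervals that did not overlap between the sorts, with *Gli1*+ above *Gli1*-, and lay closer at 7 and 21 dpi, while *Hoxa10* stayed between 37.1 and 46.0 CPM.

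Genes that act with Hox genes in the limb were read from lists. Of the 4 limb-type selectors, which set hindlimb or forelimb identity, all 4 were lower in *Cdh5* and in *Krt14* cells than in *Pdgfra* cells, 3 were lower in *Rgs5* cells, and 0 passed in *Scx* or *Col2a1* cells. *Pitx1*, the hindlimb selector, had 27.9, 22.0 and 24.1 CPM (*Gli1*+) against 6.17, 21.6 and 24.0 CPM (*Gli1*-) in *Pdgfra* cells, with the uninjured *Gli1*- library far below the others. *Tbx4*, also of the hindlimb, had 18.7, 5.61 and 8.67 CPM and 10.2, 4.86 and 5.69 CPM. The forelimb gene *Tbx5* reached at most 3.01 CPM. Their log2 fold changes in *Cdh5* cells were -3.87 for *Pitx1* (SE 0.69, adjusted p = 0.00107) and -3.90 for *Tbx4* (SE 0.59, adjusted p = 3.59e-04).

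Of 9 TALE homeodomain genes, whose products bind DNA together with Hox proteins, 1 was higher and 6 lower in *Cdh5* cells, 1 and 4 in *Krt14* cells, 0 and 3 in *Rgs5* cells, and 0 and 1 in *Scx* cells (*Meis2*, -0.94, adjusted p = 0.0328). The gene that rose in *Cdh5* cells was *Pbx3* (0.51, adjusted p = 0.0259). Of 8 limb axis genes, all 8 were lower in *Cdh5* cells, 7 in *Krt14* cells and 2 in *Rgs5* cells (*Lmx1b* and *Hand2*). Of 15 Polycomb and trithorax genes, which keep Hox genes silent or active, 1 was higher and 1 lower in *Cdh5* cells (*Suz12* and *Ring1*), and 3 and 4 in *Krt14* cells. The calls of these lists in the single *Ptprc* pool are not given. In the test between sorts 0 genes of any list passed.

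Of 9 noncoding RNAs of the clusters tested, 6 were higher in *Cdh5* cells (*Hoxb3os*, *Hoxb5os*, *Hoxaas2*, *Hoxaas3*, *Hoxd3os1* and *Hotairm1*) and 2 lower (*Hoxa11os* and *Hotair*). In *Krt14* cells 3 were higher and 1 lower, in *Rgs5* cells 4 and 1, and in *Scx* cells 1 (*Hoxd3os1*, 1.17, adjusted p = 0.0434) and 0. *Hoxb3os*, antisense to *Hoxb3*, had 19.0, 7.64 and 2.63 CPM (*Gli1*+) against 15.6, 7.17 and 5.92 CPM (*Gli1*-) in *Cdh5* cells, against at most 0.418 CPM in *Pdgfra* cells (4.24, SE 0.48, adjusted p = 4.90e-05). *Hoxa11os*, antisense to *Hoxa11*, had 25.2, 33.4 and 46.1 CPM and 13.1, 35.2 and 44.7 CPM in *Pdgfra* cells and was lower in *Cdh5* cells (-3.48). *Hoxa11os* was lowest in the uninjured library of both sorts, and *Hoxa11* in that of *Gli1*- but not of *Gli1*+. *Hotair*, which lies between *Hoxc11* and *Hoxc12*, had 4.01, 1.54 and 1.46 CPM and 1.11, 1.48 and 1.60 CPM in *Pdgfra* cells and was lower in *Cdh5* cells (-3.44). Without a known strand setting, reads of *Hoxa11* and *Hoxa11os*, and of *Hoxb3* and *Hoxb3os*, cannot be told apart with certainty.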

How the data were processed

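Single cells of 6 libraries were measured by droplet sequencing of transcript 3′ ends. The deposited values are counts of UMIs per gene and barcode, which the authors made with Cell Ranger. The matrix headers name version 9.0.0, the submitters' processing notes name version 3.1.0, STAR and mm10, and how overlapping genes and strand were handled is not given in the sources used here. Counts were deposited before cell filtering. Barcodes needed 1000 UMIs, 200 genes, log10 genes over log10 UMIs of 0.7 or more, and no more than 5% of UMIs from mitochondrial and 5% from hemoglobin genes, after which Scrublet in scanpy 1.11.5 removed 0.8% of cells per 1000 cells, in place of the doublet caller of the study's methods.

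Cells were assigned by minimum UMIs (*Pdgfra* 2, *Scx* 2, *Col2a1* 5, *Rgs5* 3, *Cdh5* 2, *Krt14* 10, *Ptprc* 1). Of the mesenchymal markers *Col2a1* went first, then *Scx*, then *Pdgfra*, and cells of several classes were left out. Levels are CPM with exact Poisson intervals, shares have exact binomial intervals, and log2 ratios have exact conditional intervals and needed 20 UMIs in the pair of libraries. UMIs of 1 library share its preparation, so these intervals and limits cover counting error only. Counts of types summed per time point, and of sorts, were tested with edgeR 4.0.16 (R 4.3.3, TMM, filtered, two-sided quasi-likelihood test, time point as block, Benjamini-Hochberg threshold 0.05). DESeq2 1.42.0 was an alternative. The fits were tested on simulated data. Python 3.11.15, numpy 2.4.6, scipy 1.17.1 and matplotlib 3.10.9 were used.

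The members, marker thresholds and gene lists were chosen with earlier results of these data known. Values in every library are given for the 12 members with the highest mean CPM in *Pdgfra* cells, for the 13 paralogs, and for up to 10 further called members per comparison by size, some as ranges, and the rest by range and counts. Ratios between sorts at each time point, cells of 1 sex and leaving out *Cntn5*, which was at 473 CPM in uninjured *Gli1*- *Pdgfra* cells, were added after seeing the data. Some items are not reported here.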

Additional observations from a re-analysis of the deposited data

Results flagged for a closer look

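In 7 cases a Hox gene of *Pdgfra* cells moved one way after injury in *Gli1*+ cells and the opposite way in *Gli1*- cells, each with a counting interval that left out 0 in both. These were 4 of 20 members compared at 7 dpi, where 4.76% of 15286 genes met the same rule, and 3 of 20 at 21 dpi, where 4.95% of 15384 genes did. The difference between the sorts was not tested, since each condition is 1 library. At 7 dpi the log2 ratio to uninjured tendon was -0.69 in *Gli1*+ and 0.65 in *Gli1*- cells for *Hoxa7*, which gives a difference of -1.34. It was -0.28 and 0.88 for *Hoxa9* (difference -1.16), -1.11 and 1.75 for *Hoxa13* (difference -2.86) and -0.22 and 0.30 for *Hoxc10* (difference -0.52). At 21 dpi it was -0.48 and 0.28 for *Hoxa11* (difference -0.76), -0.71 and 0.42 for *Hoxc8* (difference -1.13) and -0.80 and 1.06 for *Hoxd11* (difference -1.86).

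TMM scaling shifts the *Gli1*+ ratios by 0.17 at 7 dpi, after which the intervals of *Hoxa9* and *Hoxc10* hold 0 and their opposite directions are no longer beyond counting error, and by 0.24 at 21 dpi, which brings the upper end of the *Hoxd11* interval (-0.24) to about 0. All 7 rest on the uninjured libraries, in which each of these genes was higher in *Gli1*+ than in *Gli1*- cells. In cells with Y-linked UMIs alone the 7 dpi ratio of *Hoxa7* was -0.84 (*Gli1*+) against 0.73 (*Gli1*-) and that of *Hoxa9* -0.53 against 0.88, while those of *Hoxa13* and *Hoxc10* in *Gli1*+ cells, -0.70 (-1.50 to 0.17) and -0.35 (-0.68 to 0.01), had intervals that held 0.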

How the results depend on the processing

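The 3 pools of a type, and their single library per sort and time point, limit every test here, and members at a few UMIs per library are limited by counting. Of the log2 fold changes of members, 739 kept direction and side of the threshold under the alternatives and 50 no longer passed. This tally has no class for members that passed only under an alternative, which enter the counts between types below. Of the log2 ratios, 321 moved within counting error and 50 further, and 1 turned, as *Hoxa7* in *Gli1*- cells at 21 dpi was at -0.15 over all kept cells, where the make-up of types enters. Leaving out *Cntn5* changed no call.

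Counts of members past 2-fold changed as follows. Except within 1 sex, the share of all genes under each alternative is not given here or above. These counts thus show how far the member counts depend on the setting, and not how Hox genes compare with other genes. In *Gli1*+ cells at 7 dpi the 1 higher member became 0 with a minimum of 100 UMIs, doubled marker thresholds or 1 sex, where it had 23 UMIs against 0 and so no ratio, and 2 over all kept cells. At 21 dpi the 2 lower became 1 under TMM, 100 UMIs or 1 sex, and 4 were higher over all kept cells. In *Gli1*- cells at 7 dpi the 4 higher became 1 with 100 UMIs, 2 with doubled thresholds and 2 over all kept cells, and the 4 lower became 0, 1 and 15, and 2 in 1 sex. At 21 dpi the 0 lower became 3 without doublet removal, 4 without cell filters and 6 over all kept cells. Between uninjured sorts TMM left 6 of 10.

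In the tests between types, *Scx* cells had 2 higher members by DESeq2 and 5 higher and 1 lower with the 6 libraries as units and the library as block, under which *Col2a1* cells had 1 and 1. Fits with 6 libraries as units count the sorts of a time point separately, though these are not replicates. In *Rgs5* cells the 2 lower became 1 without the block, 4 with doubled thresholds, 5 with 6 libraries and 0 to 1 on leaving out a pool, and the higher ones then ranged from 6 to 8. In *Krt14* cells leaving out a pool gave 1 to 6 lower members, 1 of them without the 21 dpi pool. *Ptprc* cells had 1 higher without the block or with 6 libraries. *Cdh5* cells had 17 to 20 higher and 10 to 13 lower members over the alternatives run. Shares of all genes under these alternatives are given above only for *Scx* cells. The cause of these changes was not tested. Replicate numbers pair no libraries, since every library carries the same one. The time point is the block of the tests between sorts and between types. For uninjured tendon this block joins sorts that did not come from the same set of mice.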
